A study of Rattus norvegicus with 24 samples.

Results

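The Egr, Nr4a and Ier early genes and Btg2 were followed in rat lung after repeated inhalation of hexanal, a straight-chain aldehyde. The set was a list of symbols: Egr1, Egr2, Egr3, Nr4a1, Nr4a2, Nr4a3, Ier2, Ier3 and Btg2. A spot on the array belonged to a gene when its RefSeq accession carried that symbol, and no measured value entered this rule. The list itself was chosen with earlier results of these data known. All 9 genes of the list were on the array and 9 of 9 passed the filter on dim signals, out of 21261 genes or unnamed spots tested, 12500 of them with a symbol. Lung mRNA of 24 Fischer-344 rats was hybridised to one-colour Agilent rat arrays, 1 rat to an array. The control group breathed filtered clean air, and the low-dose, middle-dose and high-dose groups breathed hexanal at 600, 1000 and 1500 ppm in nose-only chambers, 4 h per day on 5 days per week. Each group held 6 rats, 3 males and 3 females, aged 7 to 8 weeks in the labels, and no label names an engineered allele. The study methods give 4 weeks of exposure, whereas the protocol in the labels gives 5 weeks and the same dose numbers in mg per cubic metre. The comparisons asked whether these transcripts changed with the exposure and with its dose.

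Immediate early genes are switched on soon after a stimulus without new protein synthesis. Growth factors, cytokines, calcium and cyclic AMP act through MAP kinases on the serum response factor with its ETS partners, and through protein kinase A on CREB, and the short-lived transcripts then fade. Egr1, Egr2 and Egr3 encode zinc finger transcription factors that bind GC-rich sites and are held back by the Nab corepressors. Nr4a1 (Nur77), Nr4a2 (Nurr1) and Nr4a3 (Nor1) encode orphan nuclear receptors. Ier2 encodes a nuclear protein of the early response, Ier3 a regulator of cell survival, and Btg2 an antiproliferative partner of the CCR4-NOT deadenylase. In lung these genes are known to respond to stretch, injury and cytokines.

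Printed here are the promoters of the 4 genes lower at 1500 ppm with a limma p-value under 0.05 before adjustment. They show where matches to some classical control elements lie. Whether these genes share a control was not tested. Each line holds the 250 bases before the RefSeq start on the rat build GRCr8, 5′ to 3′ on the strand of the gene, with matches to the searched motifs in capitals. The motifs were the CArG box (the serum response factor site), the cyclic AMP response element CRE (TGACGTCA), its partial site (TGACG), the Egr site (GCGGGGGCG or GCGTGGGCG), the Nr4a site NBRE (AAAGGTCA) and the ETS core (CCGGAA), each on both strands.
Nr4a1 (chr7:134259888-134260137, plus strand): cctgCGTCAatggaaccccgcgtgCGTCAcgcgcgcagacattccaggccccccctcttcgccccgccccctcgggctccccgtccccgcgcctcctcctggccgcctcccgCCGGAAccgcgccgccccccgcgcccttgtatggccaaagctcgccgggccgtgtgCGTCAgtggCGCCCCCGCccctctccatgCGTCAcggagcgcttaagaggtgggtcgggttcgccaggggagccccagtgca
Nr4a2 (chr3:62104888-62105137, minus strand): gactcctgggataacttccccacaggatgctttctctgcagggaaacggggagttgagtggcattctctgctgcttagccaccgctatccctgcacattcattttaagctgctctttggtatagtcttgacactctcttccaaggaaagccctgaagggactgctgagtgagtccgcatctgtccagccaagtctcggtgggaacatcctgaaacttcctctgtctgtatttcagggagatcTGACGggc
Ier2 (chr19:40399123-40399372, plus strand): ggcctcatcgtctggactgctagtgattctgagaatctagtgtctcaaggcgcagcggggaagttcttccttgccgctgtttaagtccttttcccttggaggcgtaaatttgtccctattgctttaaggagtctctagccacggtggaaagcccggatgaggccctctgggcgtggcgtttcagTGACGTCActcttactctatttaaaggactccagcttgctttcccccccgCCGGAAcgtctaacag
Btg2 (chr13:48087691-48087940, minus strand): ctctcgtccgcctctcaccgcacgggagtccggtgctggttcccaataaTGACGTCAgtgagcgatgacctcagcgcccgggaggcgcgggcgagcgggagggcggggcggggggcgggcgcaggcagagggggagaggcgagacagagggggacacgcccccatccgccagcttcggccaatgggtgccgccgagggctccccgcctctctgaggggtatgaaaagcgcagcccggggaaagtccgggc

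Promoters were given for 6 of the 9 genes, these 4 with Egr1 and Egr2, and not for Egr3, Nr4a3 and Ier3. The full CRE was present in Ier2, 66 to 59 bases before the start, and in Btg2, 201 to 194 bases before it, while 1.59% of the 33469 promoter windows of this length held one. The partial CRE site, which every full CRE contains on both strands, was present in 6 of 6 windows against 18.2% of all windows. Nr4a1 held 4 partial sites, an Egr site 73 to 65 bases before the start and an ETS core, and Nr4a2 held 1 partial site. The CArG box was seen in 2 of 6 windows, those of Egr1 (2 boxes) and Egr2 (1 box), against 1.5% of all. An Egr site was held by 1 of 6 windows against 2.85% of all, an ETS core by 3 of 6 against 12.6%, and an NBRE by 0 of 6 against 1.24%. These matches describe the letters in each window and say nothing of the factors bound there.

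Each signal is given as a level, the log2 of the background-subtracted signal minus the log2 of the 75th percentile of its own array, so that 0 is that percentile and 1 unit is a doubling. A gene is set only against itself, because signals of different probes share no scale. The 75th percentile lay between 1700.94 and 3129.92 intensity units over the 24 arrays, with no saturated probe, and it was lowest in high-dose rat 36. The 4 alveolar type II markers exceeded background clearly on every array, with summed signals of 384 to 474 times the 75th percentile in the control group and 371 to 473 in the high-dose group. The arrays lay on 6 slides of 4, each slide held rats of 1 sex, and control and high-dose rats never shared a slide. Of the 9 genes, 8 were well above background on all 24 arrays. Egr3 was so on 20 arrays, 6 of the control, 3 of the low-dose, 6 of the middle-dose and 5 of the high-dose group, so its low-dose values are the least certain of the set.

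At 1500 ppm, 7 of the 9 early genes had a mean below control, with a median log2 difference of -0.55 against 0.01 over all genes tested. Nr4a1 and Btg2 were lower by at least 1.5-fold with an unadjusted limma p-value under 0.05, the threshold the study used, and no gene of the set was higher past it. Over all genes tested, 0.531% were called lower by the same rule, a smaller share than 2 of 9. The paper lists both genes among its target genes, and the set was chosen with earlier results of these data known. The members also vary together from rat to rat, so this share is not independent support. Ier2 and Nr4a2 were lower with a p-value under 0.05 but at 1.48-fold and 1.47-fold, just short of the fold threshold. Thus 4 of 9 were lower at an unadjusted p-value under 0.05 at any fold, against 3.04% of all genes. No gene of the set had an adjusted p-value under 0.05 at 1500 ppm, where 0.0047% of all genes did (limma, Benjamini-Hochberg). The limma and exact permutation p-values given for this comparison treat the rats as independent. Control and high-dose rats never shared a slide, so these p-values do not separate slide from dose. With slide as a random block, the correlation within slides was 0.29, a value that includes what rats of a sex share. In whole lung, fewer cells of a type and less RNA per cell cannot be told apart.

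**Figure D1:**
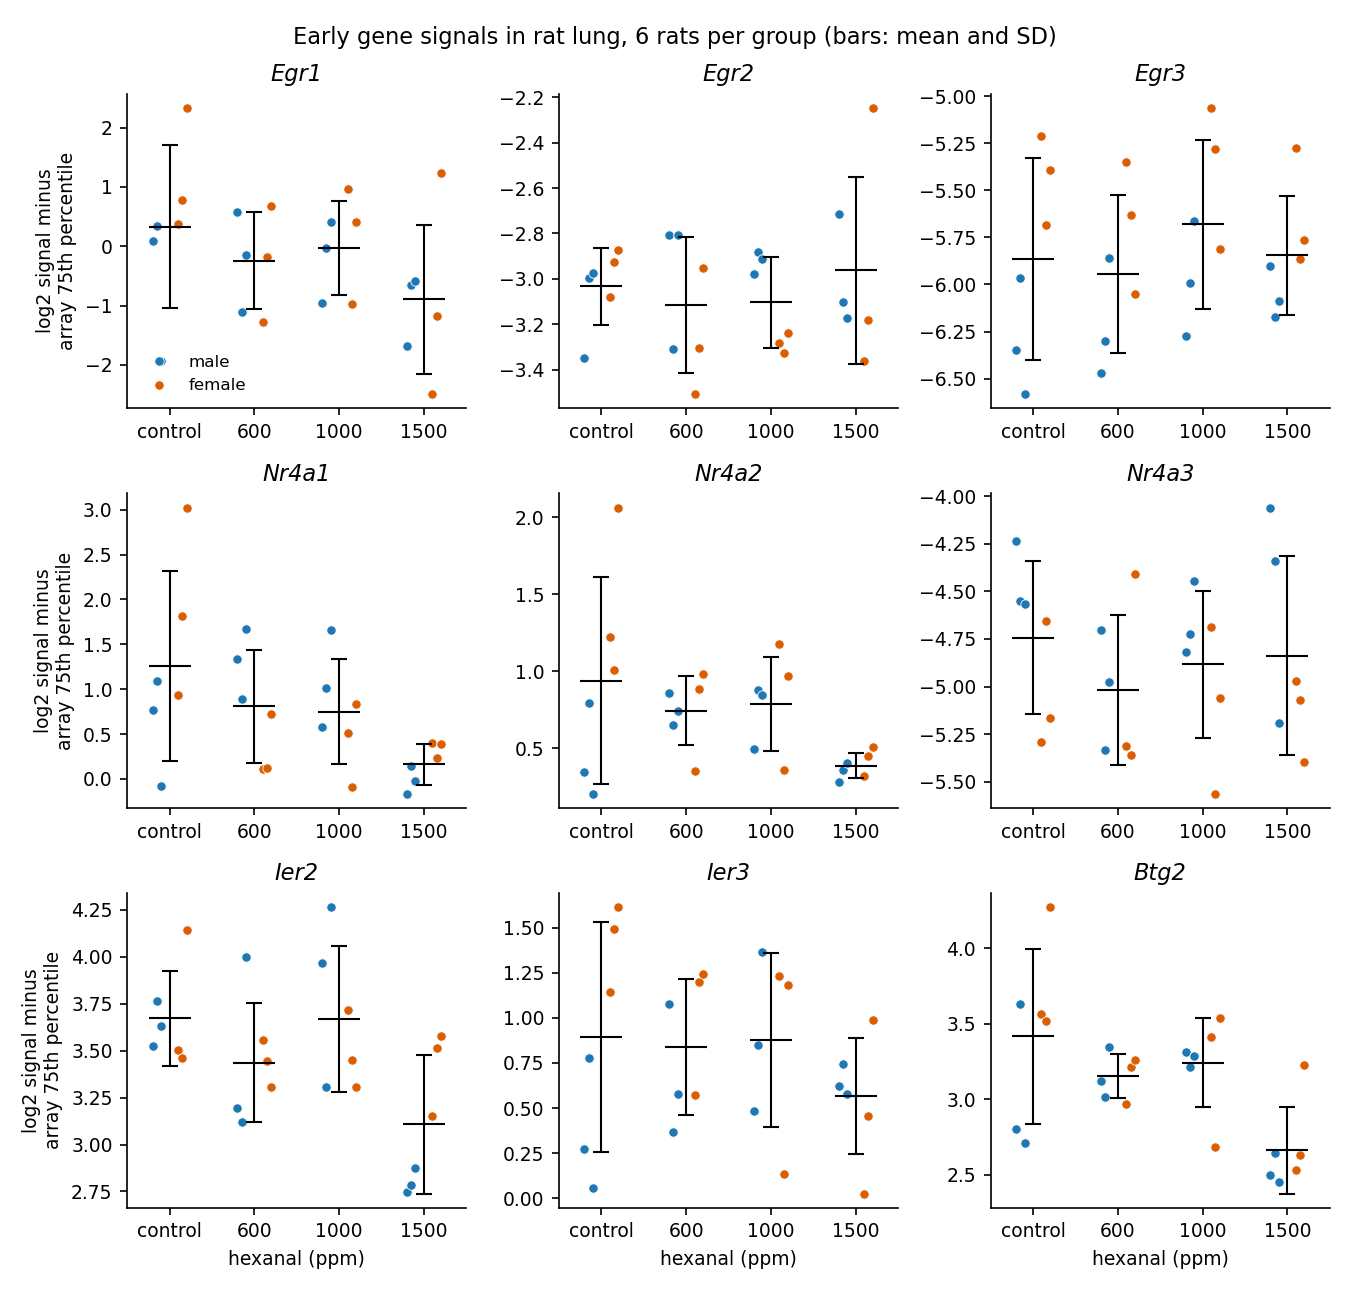
Level of each of the 9 early genes in every rat (log2 signal minus the 75th percentile of the array, vertical axis) by hexanal dose (horizontal axis, ppm), with males in blue, females in orange, and the mean and SD of 6 rats in black. The Nr4a1 and Nr4a2 levels of the high-dose rats lie in a narrow band at the low end of the control range, and 5 of 6 high-dose Btg2 levels lie below every control rat.

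Among the orphan nuclear receptors, Nr4a1 (NM_024388) and Nr4a2 (NM_019328) had lower means and a smaller spread at 1500 ppm, Nr4a1 past the threshold and Nr4a2 short of it in fold, and Nr4a3 (NM_031628) was close to control. The Nr4a1 level ran from -0.08 to 3.02 in the control group (median 1.01), from 0.11 to 1.67 at 600 ppm (median 0.81), from -0.09 to 1.66 at 1000 ppm (median 0.71) and from -0.17 to 0.40 at 1500 ppm (median 0.19). Every high-dose rat lay below the control median, but only 1 lay below every control rat, because control rat 3 was low as well. Nr4a1 thus differed from control by -1.10 at 1500 ppm (SE 0.38), which is 2.14-fold lower, with a limma adjusted p of 0.572 and a two-sided exact permutation p of 0.0152. The SD was 1.06 in the control group and 0.23 in the high-dose group, a ratio of 4.63.

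Nr4a2 was read by 2 probes. On the brighter probe its level ran from 0.20 to 2.06 in the control group (median 0.90), from 0.35 to 0.98 at 600 ppm (median 0.80), from 0.36 to 1.18 at 1000 ppm (median 0.86) and from 0.28 to 0.51 at 1500 ppm (median 0.38). All 6 high-dose rats lay below the control median and inside the control range. The difference at 1500 ppm was -0.55 (SE 0.22, adjusted p = 0.640 from limma), with an exact permutation p of 0.0584, two-sided. Without control rat 23 it was -0.33, and its unadjusted limma p-value was no longer under 0.05. The SD was 0.67 in the control group and 0.08 in the high-dose group, a ratio of 8.18. Without control rat 23 the control SD was 0.68 for Nr4a1 and 0.43 for Nr4a2, and the ratios were 2.98 and 5.25. With all 6 control rats, the control SD also exceeded those of the lower doses. The ratios at 600 and 1000 ppm were 1.68 and 1.81 for Nr4a1, and 2.99 and 2.21 for Nr4a2. None of these ratios was tested. The other Nr4a2 probe gave -0.68 with an exact permutation p of 0.0108, its control levels running from -1.59 to 0.06 and its high-dose levels from -1.67 to -1.52. Both probes thus gave the same direction, and they differed in whether they passed 1.5-fold.

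Nr4a3 had levels from -5.29 to -4.23 in the control group (median -4.61) and from -5.40 to -4.06 at 1500 ppm (median -5.02). The difference was -0.10 (SE 0.24, 95% confidence interval -0.59 to 0.40), so these 12 rats leave room for a change of that size in either direction. Its levels at 600 ppm ran from -5.36 to -4.41 and at 1000 ppm from -5.56 to -4.44, and all groups overlapped.

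Btg2 (NM_017259), which slows the cell cycle and recruits the deadenylase, had the most high-dose rats below every control rat of the 9 genes. Its level ran from 2.71 to 4.27 in the control group (median 3.54), from 2.97 to 3.34 at 600 ppm (median 3.17), from 2.69 to 3.54 at 1000 ppm (median 3.30) and from 2.45 to 3.23 at 1500 ppm (median 2.58). The 5 high-dose rats other than rat 38 lay at or under 2.64, below all 6 control rats, and rat 38 lay among the controls. The difference was -0.75 (SE 0.20), 1.68-fold lower, with a limma adjusted p of 0.346 and a two-sided exact permutation p of 0.0173. Without control rat 23, the highest control, the difference was -0.58 and no longer reached 1.5-fold. Over all genes tested, 0.169% had every high-dose rat below every control rat, and 0 of the 9 early genes did.

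Ier2 (NM_001009541) and Ier3 (NM_212505) share a name but no protein family. The Ier2 level ran from 3.46 to 4.14 in the control group (median 3.58), from 3.12 to 4.00 at 600 ppm (median 3.38), from 3.31 to 4.26 at 1000 ppm (median 3.58) and from 2.75 to 3.58 at 1500 ppm (median 3.01). The 3 high-dose males, at 2.75 to 2.88, were lower than all 18 rats of the other groups, and 4 of 6 rats at 1500 ppm were under the lowest control. The Ier2 difference was -0.56 (SE 0.19, adjusted p = 0.529 from limma), with an exact permutation p of 0.0216, two-sided. The Ier3 level ran from 0.06 to 1.61 in the control group and from 0.03 to 0.99 at 1500 ppm, and its difference of -0.32 (SE 0.26) was within the spread between rats (exact permutation p = 0.277).

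Of the Egr factors, Egr1 (NM_012551) had the largest mean difference of the whole set and also the largest spread. Its level ran from -1.93 to 2.34 in the control group (median 0.36), from -1.28 to 0.68 at 600 ppm (median -0.16), from -0.97 to 0.96 at 1000 ppm (median 0.19) and from -2.49 to 1.23 at 1500 ppm (median -0.92). High-dose rat 38 was second only to control rat 23 over all 24 rats. The Egr1 difference of -1.23 (SE 0.60, 2.34-fold lower) did not pass the threshold, with a limma adjusted p of 0.728 and a two-sided exact permutation p of 0.139. Without high-dose rat 38 it was -1.65 and without control rat 3 it was -1.68, and in both cases it passed 1.5-fold with an unadjusted p-value under 0.05. Without control rat 23 it was -0.83 and did not pass.

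Egr2 (NM_053633) and Egr3 (NM_017086) did not follow Egr1. The Egr2 level ran from -3.35 to -2.87 in the control group and from -3.36 to -2.25 at 1500 ppm, with a difference of 0.07 (SE 0.16, 95% confidence interval -0.26 to 0.40). The Egr3 level ran from -6.58 to -5.21 in the control group and from -6.17 to -5.28 at 1500 ppm, with a difference of 0.02 (SE 0.24, 95% confidence interval -0.48 to 0.52). A second Egr3 probe was well above background on 2 of 24 arrays and gave no usable level. For both genes a change of 1.5-fold in either direction lay outside the interval. The Egr3 probe was dim, however, at 31.1 to 68.8 intensity units in the control group. The Egr3 difference at 1500 ppm ran from -0.31 to 0.25 over the alternative settings. A change of Egr3 is thus less well bounded than one of Egr2.

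**Figure D2:**
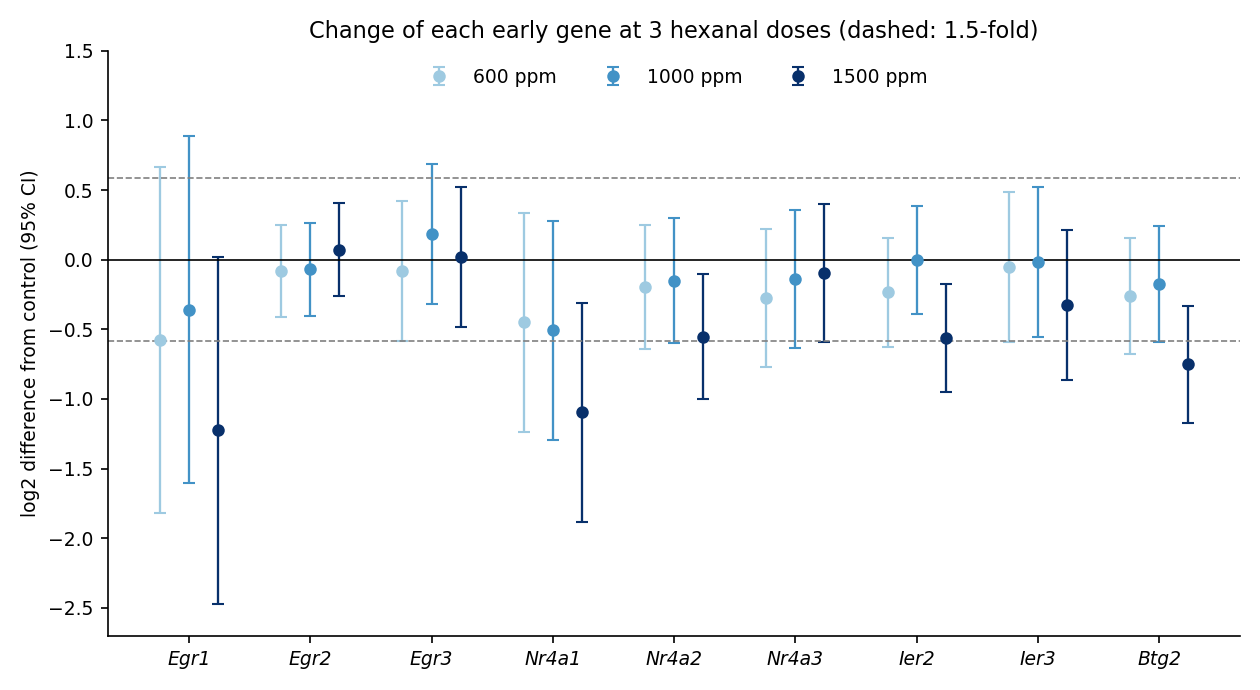
Log2 difference of each early gene from control at 600, 1000 and 1500 ppm (vertical axis), with 95% confidence intervals from limma on all 24 arrays and dashed lines at 1.5-fold. The intervals of Nr4a1, Nr4a2, Ier2 and Btg2 lie below 0 at 1500 ppm, and all intervals at 600 and 1000 ppm include 0.

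The lower doses were closer to control. At 600 ppm 9 of 9 genes had a lower mean, with a median difference of -0.24, and 0 of 9 were called lower, against 0.437% of all genes. At 1000 ppm 8 of 9 were lower, with a median of -0.14, and again 0 of 9 were called lower, against 0.339% of all genes. These comparisons share the 6 control rats, so their directions are not separate evidence. Nr4a1 differed by -0.45 and -0.51 at the 2 lower doses (SE 0.38 each), Btg2 by -0.26 and -0.17 (SE 0.20 each) and Egr1 by -0.58 and -0.36 (SE 0.60 each). Without control rat 23 alone, the same differences were -0.098 and -0.16 for Nr4a1, -0.091 and -0.0039 for Btg2, and -0.18 and 0.042 for Egr1. Adjusted p-values under 0.05 were reached by 0% of all genes at 600 ppm and by 0.0188% at 1000 ppm, and by no early gene (limma).

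For Btg2, Egr1, Ier2, Ier3 and Nr4a2 the order of the group means was control, middle-dose, low-dose, high-dose, and for Nr4a1 it was control, low-dose, middle-dose, high-dose. Neighbours in these orders did not differ past the threshold, and in all 6 orders the bottom step was the widest. The two-sided exact permutation p-value of that step was 0.0390 for Nr4a1 (1500 against 1000 ppm). For the step from 600 to 1500 ppm it was 0.0108 for Nr4a2, 0.0108 for Btg2, 0.126 for Ier2, 0.227 for Ier3 and 0.327 for Egr1 (exact permutation). Between exposed groups, 0 of 9 genes were called lower at 1500 ppm than at 600 ppm (0.367% of all genes), 0 of 9 at 1500 than at 1000 ppm (0.282%) and 0 of 9 at 1000 than at 600 ppm (0.08%). Between 1000 and 1500 ppm the intervals of Btg2 and Ier2 did not include 0. Btg2 was lower by 1.49-fold at 1500 ppm than at 1000 ppm (log2 difference -0.58, SE 0.20), where the exact permutation p was 0.00649 and limma gave an adjusted p of 0.898, and 5 of 6 high-dose rats lay below every middle-dose rat. Ier2 was lower by 1.47-fold (log2 difference -0.56, SE 0.19), where the exact permutation p was 0.0325 and limma gave an adjusted p of 0.889. A slope on dose over all 24 rats was negative with an unadjusted limma p-value under 0.05 for Nr4a1, Nr4a2, Ier2 and Btg2, 4 of 9 genes against 3.72% of all genes. These are the same 4 genes that were lower at 1500 ppm than in control at that p-value. The slope uses the same control and high-dose rats, and the members vary together, so this share is not separate evidence. The Btg2 slope was -0.45 per 1000 ppm (SE 0.13, adjusted p = 0.369 from limma) and the Nr4a1 slope -0.69 (SE 0.24, adjusted p = 0.459).

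The sexes were compared because both were exposed at each dose, and no difference between the sexes in the effect of 1500 ppm passed the test for any early gene (0 of 9). Among control rats, 8 of 9 early genes had a higher mean in females, with a median difference of 0.87, and for 5 of 9 the 3 females lay wholly apart from the 3 males, which was not tested. Nr4a1 was 1.93 ± 1.05 in control females and 0.59 ± 0.61 in control males (SD, n = 3), Nr4a2 was 1.43 ± 0.56 and 0.45 ± 0.31, Ier3 was 1.42 ± 0.24 and 0.37 ± 0.37, and Btg2 was 3.78 ± 0.42 and 3.05 ± 0.51. In the low-dose and middle-dose groups 2 and 3 of 9 genes were higher in females, with median differences of -0.01 and -0.06. In the high-dose group 7 of 9 were, with a median of 0.16. The control females lay on 1 slide and the control males on another, and in these values the effects of slide and sex cannot be told apart.

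Set against controls of their own sex, females had a lower mean for 8 of 9 genes at every dose, with medians of -0.41, -0.56 and -0.93 at 600, 1000 and 1500 ppm. Males had a higher mean for 7, 8 and 3 of 9 genes, with medians of 0.13, 0.29 and -0.10. Nr4a1 in females differed by -1.61, -1.51 and -1.58 at the 3 doses (SE 0.41 each), and in males by 0.70, 0.49 and -0.61. All 3 doses are set against the same 3 control rats of each sex, so their directions are not separate evidence. The control females included rat 23, whose Nr4a1 level of 3.02 was the highest of the control group. Nr4a2 at 1500 ppm differed by -1.005 in females and -0.10 in males (SE 0.24 each). Btg2 had a lower mean in both sexes at 1500 ppm, differing by -0.99 in females and -0.52 in males (SE 0.25 each). Ier2 was the exception, with -0.84 in males and -0.29 in females (SE 0.24 each). The test of the difference between the sexes at 1500 ppm left 0 of 9 early genes at an adjusted p under 0.05 in limma, whereas 4.97% of all genes passed, and the smallest adjusted p-values of the set were 0.124 for Ier3 (males minus females 1.20, SE 0.44) and 0.139 for Nr4a2 (0.91, SE 0.34). At 600 ppm the Nr4a1 difference between the sexes was 2.31 (SE 0.58, adjusted p = 0.672 from limma), and at 1000 ppm it was 2.00 (SE 0.58, adjusted p = 0.307).

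**Figure D3:**
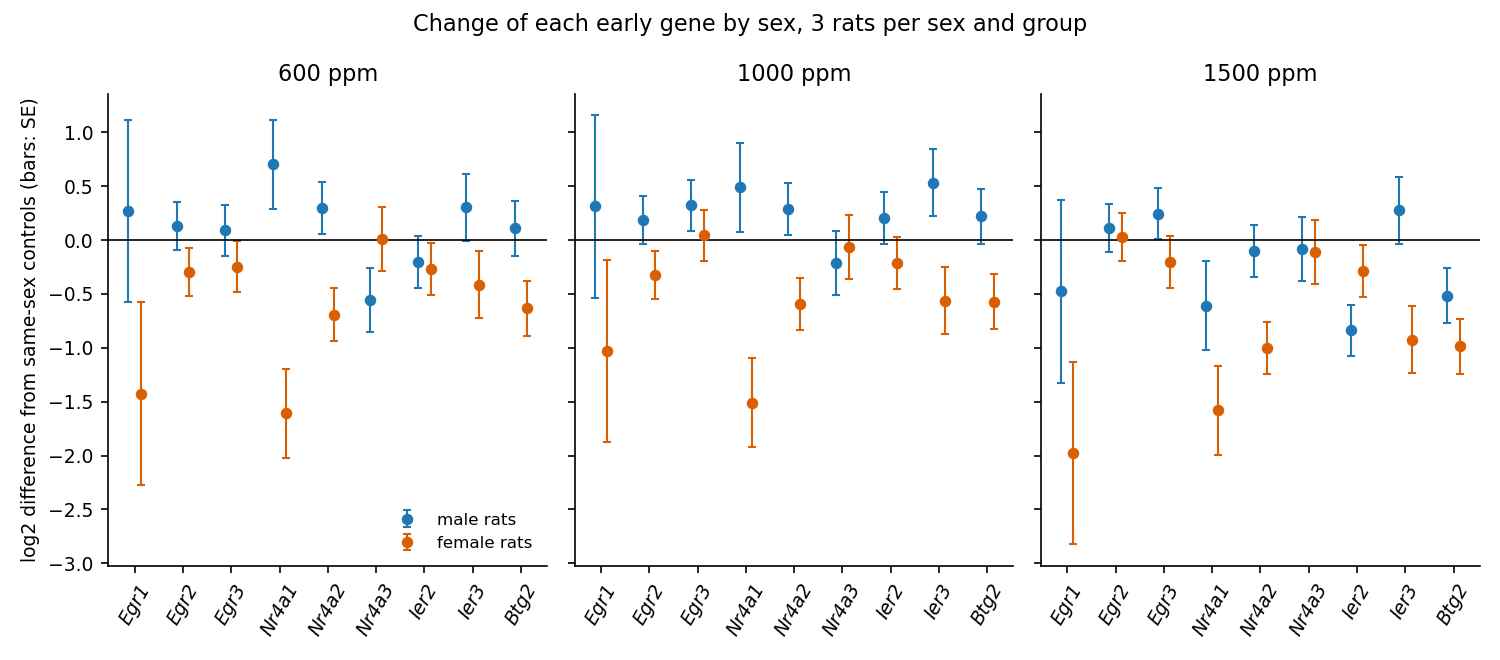
Log2 difference of each early gene from controls of the same sex (vertical axis, bars are SE from limma) at 3 doses, with 3 rats per sex and group. The 3 doses share the same controls. At 600 and 1000 ppm females lie below 0 and males above 0 for most genes. At 1500 ppm Btg2, Nr4a1, Egr1, Ier2, Nr4a2 and Nr4a3 lie below 0 in both sexes.

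Within a slide, where rats of 1 sex and 2 adjacent groups were hybridised together, the values were as follows. On the male slide with 1 middle-dose and 3 high-dose rats, all 9 genes were lower at 1500 ppm, with a median of -0.72, against middle-dose rat 13, which was the highest of its own group for 4 genes; Nr4a1 differed by -1.68, Ier2 by -1.46, Egr1 by -1.39 and Btg2 by -0.75. On the female slide of the same layout 6 of 9 were lower, with a median of -0.49; Egr1 differed by -1.22, Btg2 by -0.74, Nr4a2 by -0.54 and Ier2 by 0.11. The Btg2 value was nearly the same on both slides, but each rests on 1 middle-dose rat. On the female slide this was rat 33, the highest of its group for Btg2. On the slide of 3 control males and low-dose rat 6, 6 of 9 genes were higher at 600 ppm, and on that of 3 control females and low-dose rat 26, 8 of 9 were lower. The lone rat on each of these 4 slides has no replicate there. On the 2 slides with 2 low-dose and 2 middle-dose rats, 6 of 9 genes were higher at 1000 ppm in males (median 0.084) and 7 of 9 were lower in females (median -0.19). No test was made within slides. With slide as a block, where control and high-dose rats are linked only through the slides between them, the difference at 1500 ppm was -1.97 for Nr4a1 (SE 0.86) and -1.17 for Btg2 (SE 0.45), both still called. It was -0.94 for Nr4a2 (SE 0.48), -0.83 for Ier2 (SE 0.48) and -2.04 for Egr1 (SE 1.504), and for none of these 3 was the unadjusted limma p-value under 0.05. Every one of these errors was larger than without the block.

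Most, but not all, of the early genes varied in the same direction from rat to rat. After the group mean was taken from each value, 30 of the 36 pairs of early genes had a positive Pearson r over the 24 rats, with a median of 0.33, a value that includes what rats of a slide and sex share. Between the 9 genes and the 12491 other genes with a symbol, 50.3% of the pairs were positive and the median was 0.0021. The highest were 0.85 for Nr4a2 with Btg2, 0.84 for Egr1 with Ier3 and 0.81 for Nr4a2 with Ier3. Nr4a3 was negative with 5 of its 8 partners, and its pair with Egr3 was the lowest at -0.47. Control rat 23 was the highest control for 7 of 9 genes and control rat 3 the lowest for 6. Middle-dose rat 32 was the lowest of its group for 7 genes and high-dose rat 38 the highest of its group for 6. Leaving out control rat 23 cut the Nr4a1 difference at 1500 ppm from -1.10 to -0.74, still past the threshold, and leaving out control rat 3 moved it to -1.36. The count of early genes called at 1500 ppm was 4 without control rat 1, without control rat 3 or without high-dose rat 38, and 1 without control rat 23.

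**Figure D4:**
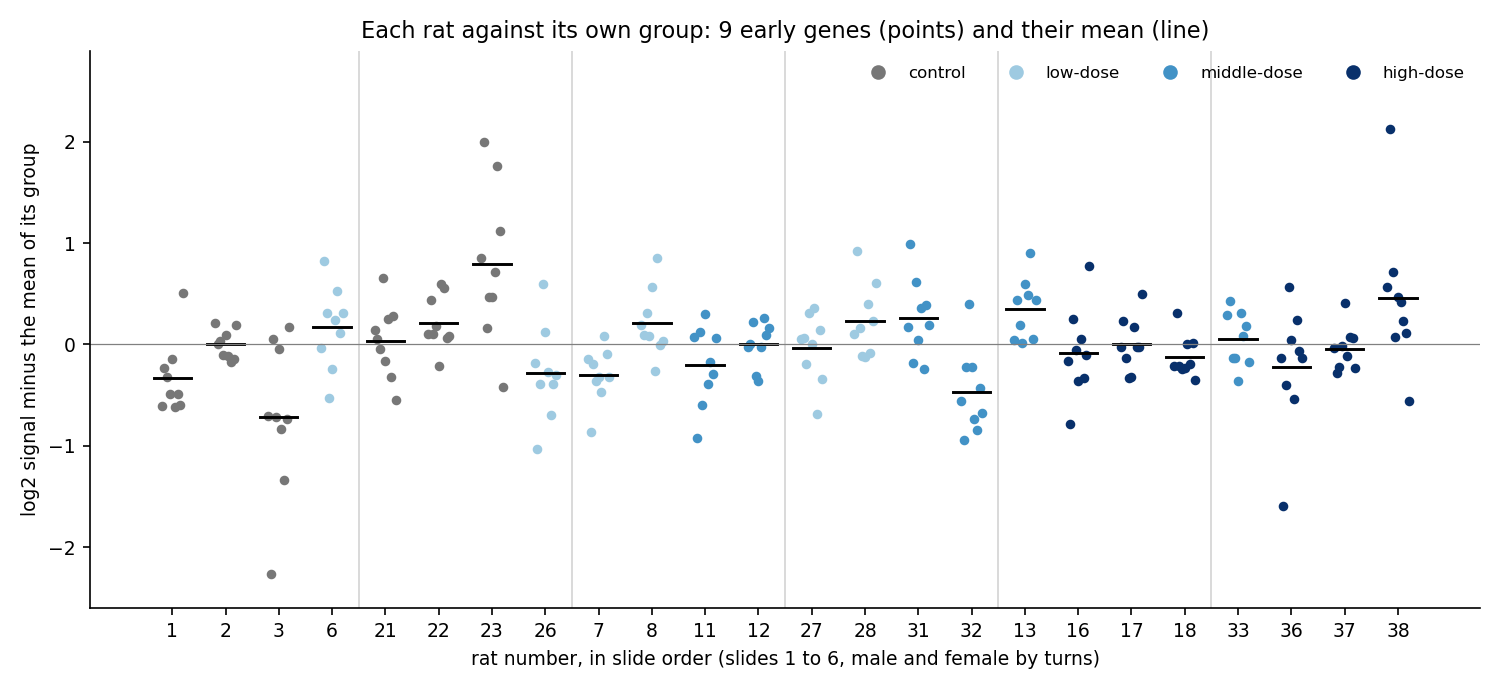
Level of each early gene in each rat minus the mean of that rat's group (vertical axis, log2), with rats in slide order on the horizontal axis; points are the 9 genes and black lines their mean. Control rat 23 has a mean of 0.79 and control rat 3 one of -0.71, the widest of any group, and high-dose rat 38 has a mean of 0.46.

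The genes whose levels were most like those of the early genes, by Pearson r of the same group-centred values over 24 rats are named next. Of these 18 places 8 were held by the list of other immediate early genes, spread over 5 of the 9 genes. Only Fos, Ccn1, Junb and Arc held them, since Fos, Ccn1 and Junb came up repeatedly. That list had 25 tested genes among the 12491 searched. Early genes that vary together share neighbours, so these places are not separate evidence. For Egr1 they were Fos (r 0.88) and Ccn1 (0.84), and for Ier3 they were Fos (0.89) and Snai1 (0.87). Btg2 was closest to Ccn1 (0.91) and Junb (0.90), Nr4a2 to Arc (0.86) and Junb (0.83), and Nr4a1 to Junb (0.73) and Ppp1r15a (0.72). The others had different neighbours: Egr3 had Osm (0.91) and Lzts3 (0.89), Egr2 had Pafah1b2 (0.74) and Atf4 (0.72), Nr4a3 had Clic2 (0.81) and Pde10a (0.80), and Ier2 had Kif13a (0.79) and Id2 (0.78). These were picked as the highest of all genes with a symbol and carry no test.

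Around the set, 9 of 25 other immediate early genes were lower past the threshold at 1500 ppm. Of the 25 such genes tested, 20 had a lower mean and 5 a higher one, and 0 were called higher. The median difference was -0.41, and over all genes tested 0.531% were called lower. The paper lists Junb and Zfp36 among its target genes, and this list too was chosen with earlier results of these data known. Its genes were read in the same rats as the 9 early genes, and some vary with them. The share of 9 of 25 is therefore not independent support. Klf4 and Klf2, zinc finger factors of epithelium and endothelium, differed by -0.71 (SE 0.16) and -1.04 (SE 0.23), and Jun, the AP-1 subunit, by -0.88 (SE 0.20). Csrnp1, a nuclear protein of the early response, differed by -0.62 (SE 0.14) and Zfp36, which destabilises AU-rich transcripts, by -0.98 (SE 0.25). Their adjusted p-values from limma were 0.155 to 0.291. These 5 had the smallest p-values of the 9. The others were Fos at -2.42 (SE 0.68), the lowest difference of all genes tested, Junb at -0.71 (SE 0.26), Sik1 at -0.75 (SE 0.22) and Arc at -0.74 (SE 0.34). Limma gave these others adjusted p-values of 0.411 to 0.701. Of the 5 with a higher mean, the 2 with the largest values, named after these were seen, were Atf3, a stress-induced factor, at 0.56 (SE 0.52) and Ccn2, a matricellular protein, at 0.42 (SE 0.19). Without control rat 23 the count of called genes was 6 of 25. At 600 ppm 0 of 25 and at 1000 ppm 3 of 25 were called lower.

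In the 4 lists of genes above and beside the early genes in the pathway, 1 gene was called at 1500 ppm, and over all genes tested 1.23% were called in either direction. Of the 13 upstream kinases and factors tested, 0 were called, and the 2 with the smallest p-values, Crem (-0.22, SE 0.11) and Srf (0.14, SE 0.08), did not pass. Of 11 feedback phosphatases and inhibitors 1 was called, Dusp1, the MAP kinase phosphatase that is itself an early gene, at -1.32 (SE 0.30, adjusted p = 0.188 from limma). At any fold, 3 of the 11 were lower with an unadjusted limma p-value under 0.05, against 3.04% of all genes. Besides Dusp1 these were Dusp8 at -0.55 (SE 0.19) and Dusp6 at -0.38 (SE 0.12), both short of 1.5-fold. Of the 11, 7 had a lower mean and 4 a higher one. Of 8 partners 0 were called; Nab2, the corepressor of the Egr factors, differed by 0.43 (SE 0.11, adjusted p = 0.258 from limma) and Cnot7, a deadenylase that binds Btg2, by -0.18 (SE 0.07). Of 7 relatives of the Btg and Ier families 0 were called, with Tob2 at -0.36 (SE 0.13) and Btg1 at -0.09 (SE 0.07).

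Marker lists of lung and blood cells gave the context of these values at 1500 ppm. Of the 4 endothelial, 4 alveolar type I and 4 alveolar type II markers 0 were called, and their median differences were -0.07, 0.01 and -0.09. The 3 mast cell markers were all lower, with a median of -0.50 and 0 called, and their summed signal ran from 0.247 to 0.630 in the control group and from 0.131 to 0.602 at 1500 ppm (multiples of the 75th percentile). Of the 6 heart muscle markers 5 were tested, and all 5 were higher with 0 called, with a summed signal of 2.92 to 35.1 in the control group and 3.02 to 124 at 1500 ppm. Of the 3 erythroid markers, which were all lower, 1 was called: Alas2, the erythroid enzyme of haem synthesis, at -0.81 (SE 0.38, limma adjusted p = 0.717). Of the 3 smooth muscle markers, all higher, 0 were called, with Acta2, smooth muscle actin, at 0.36 (SE 0.13) and under an unadjusted p of 0.05. Alas2 and Acta2 were singled out after their values were seen. The part of these cell types in the early gene values was not tested.

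**Figure D5:**
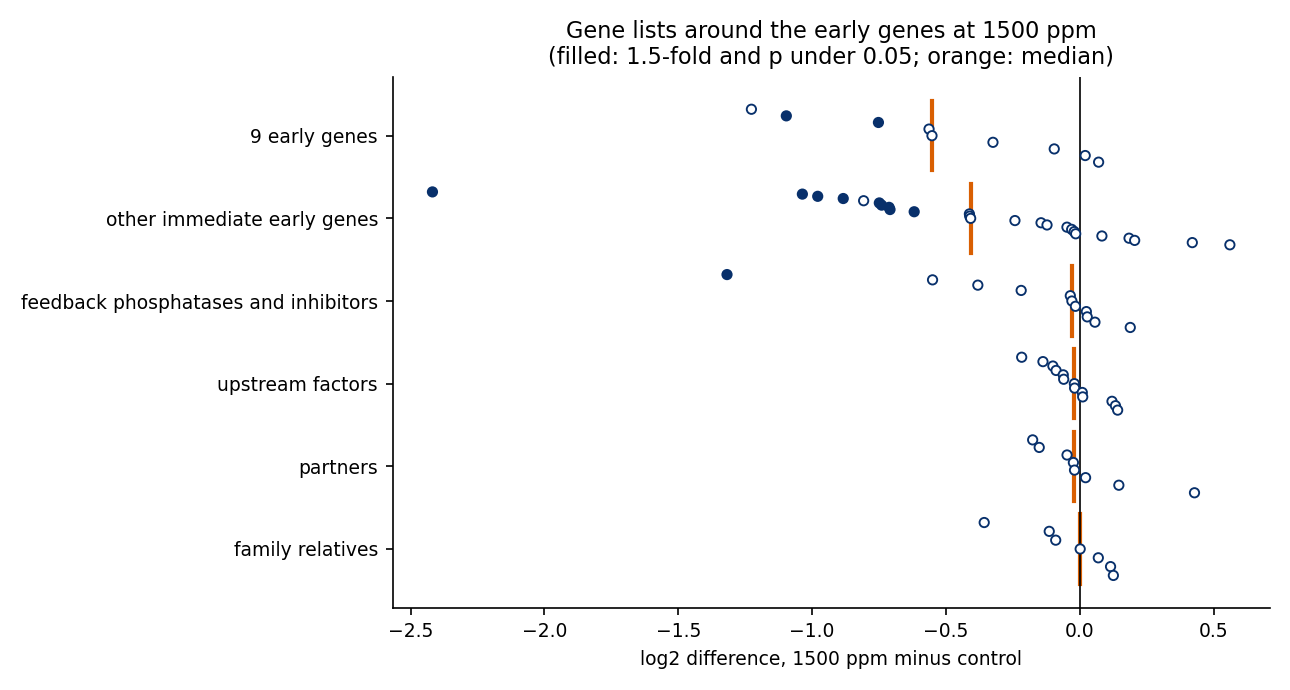
Log2 difference at 1500 ppm minus control (horizontal axis) of each gene tested in the set and in 5 lists of its pathway; filled points passed 1.5-fold at an unadjusted limma p-value under 0.05, and orange lines are medians. The early genes and the other immediate early genes have medians of -0.55 and -0.41, and the 4 remaining lists have medians between -0.03 and 0.00.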

How the data were processed

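The authors deposited Agilent Feature Extraction intensities of one-colour (Cy3) arrays of lung total RNA, background-subtracted and detrended within each array but not scaled between arrays; their series table holds the same intensities. Control spots were left out, and the spots of a probe were averaged without flagged outliers. Where every spot of a probe was flagged on an array, its value was kept. The probes of Egr1, Egr3, Nr4a2, Nr4a3 and Btg2 had 1 spot each, so no flagged spot could be left out for them. There were 30367 probes from 42877 spots, and 18355 of the probes (60.4%) were matched by accession to 15443 symbols. The log2 processed intensity minus the log2 75th percentile of each array entered the fit where a probe was well above background on at least 5 arrays of any group, with the brightest probe per gene. Groups came from the labels. limma 3.58.1 in R 4.3.3 was fitted to all 24 arrays, with Benjamini-Hochberg adjustment over all genes tested; a call needed 1.5-fold and an unadjusted p under 0.05, as in the study methods. Exact permutation tests of 6 rats against 6 are two-sided and cannot go below 0.00216; 54 were run on the set and 6 on second probes of Egr3 and Nr4a2, 60 in all. The number of arrays limits the precision. The fit was tested on simulated data. The genes, lists and tests were chosen with earlier results of these data known. Named genes are all 9, the 2 most alike genes of each, and up to 5 called genes of each pathway list, or the 2 with the smallest p. The differences of Fos, Junb, Sik1, Arc, Atf3, Ccn2, Dusp6, Dusp8, Alas2 and Acta2 were given outside this rule. Promoter sequences are from RefSeq (GRCr8), and the array was designed on another build.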

Additional observations from a re-analysis of the deposited data

Results flagged for a closer look

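Btg2 in high-dose rat 38 stood apart from the other 5 high-dose rats: its level of 3.23 was the highest of the group, and its gap to the next rat was 0.756 of the whole range. This was 1 of 36 groups of 6 rats examined for the 9 early genes, where chance marks about 1 in 20. Rat 38 was also the highest high-dose rat for 6 of the 9 genes. Without rat 38 the Btg2 difference at 1500 ppm was -0.87 instead of -0.75.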

How the results depend on the processing

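At 1500 ppm Egr1, Nr4a1, Nr4a2, Ier2 and Btg2 kept a lower mean in all 15 alternative settings that kept the call threshold and in all 24 fits that left out 1 rat. Leaving out a low-dose or middle-dose rat cannot move this difference, so only fits without a control or high-dose rat bear on its direction. The methods' t-test, the 2 groups alone, sex as a covariate and the changed filters on dim probes also leave the difference of these genes unchanged. Nr4a1 and Btg2 were called in 14 of the 15 settings, the exception for both being the fit of males only (-0.61 and -0.52). The count of called early genes at 1500 ppm, 2 as reported, was 5 with the authors' table without scaling, 4 with slide as a random block, 5 with array weights, 1 in males only, 4 in females only and 0 when an adjusted p was required; leaving out 1 rat gave 1 to 4, with 4 without control rat 1, control rat 3 or high-dose rat 38, and 1 without control rat 23, where Btg2 was -0.58. The single-sex fits called 1.01% (males) and 3.33% (females) of all genes lower. At 600 ppm the count of 0 became 3 in females only, and leaving out 1 rat gave 0 to 0. At 1000 ppm it became 1 with normexp and 1 in females only, and 0 to 1 with 1 rat left out (control rat 3). For 1500 against 600 ppm it became 2 with the authors' table, 1 with the methods' t-test, 1 with the 2 groups alone, 1 with slide as a block, 1 with array weights and 3 in males only, and 0 to 1 with 1 rat left out (control rat 23 or high-dose rat 38). For 1500 against 1000 ppm it became 2 with the authors' table, 1 with the methods' t-test, 1 with the 2 groups alone, 3 with slide as a block, 2 with slide as a random block, 2 with array weights and 3 in males only, and 0 to 3 with 1 rat left out, the 3 without high-dose rat 38, 2 without middle-dose rat 32 and 1 without middle-dose rat 12, middle-dose rat 33 or high-dose rat 37. The sex difference count of 0 became 1 with array weights. The cause of these moves was not tested.

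Directions reversed as follows, and the cause was not tested. In males only, Egr1 was 0.27 at 600 ppm and 0.31 at 1000 ppm, Egr2 0.13 and 0.18, Nr4a1 0.70 and 0.49, Nr4a2 0.30 and 0.29, Btg2 0.11 and 0.22, and Ier3 0.31 and 0.53 with 0.28 at 1500 ppm, while Egr3 was 0.090 at 600 ppm and Ier2 0.21 at 1000 ppm. In females only, Nr4a3 was 0.0070 at 600 ppm and Egr3 -0.20 at 1500 ppm. With the authors' table, Ier3 was 0.016 at 600 ppm and 0.086 at 1000 ppm, Egr2 0.034 and Ier2 0.10 at 1000 ppm, and Egr3 -0.045 at 1500 ppm. With normexp, Egr3 was -0.54, Ier2 0.068 and Ier3 0.035 at 1000 ppm, and Egr2 -0.088 and Egr3 -0.22 at 1500 ppm. With array weights, Nr4a3 was 0.0074 and Ier2 0.025 at 1000 ppm, and Egr3 -0.31 and Nr4a3 0.27 at 1500 ppm. Egr2 was -0.035 with slide as a block and Egr3 -0.054 with quantile normalization at 1500 ppm. With 1 rat left out, the ranges that crossed 0 were -0.22 to 0.052 for Egr3, -0.34 to 0.030 for Nr4a2 and -0.22 to 0.091 for Ier3 at 600 ppm, -0.81 to 0.042 for Egr1, -0.30 to 0.074 for Nr4a2, -0.12 to 0.091 for Ier2 and -0.18 to 0.13 for Ier3 at 1000 ppm, and -0.073 to 0.15 for Egr2, -0.12 to 0.15 for Egr3 and -0.25 to 0.016 for Nr4a3 at 1500 ppm.

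Slide, sex and dose overlap in this layout: control and high-dose rats shared no slide, so no within-slide value of that comparison exists. No paired analysis was possible because rat numbers are not shared between groups. Signal over background limits Egr3, and 6 rats per group limit all values.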
